A study of Mus musculus with 4 samples.

Results

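Trp53, Mdm2 and Mdm4 encode the tumour suppressor p53 and its paired negative regulators. They were followed in mouse neural stem cells with Nanopore long reads from PCR-amplified cDNA, and their reads were taken by gene identifier from the table of isoforms. The 3 genes had 27 isoform entries among the 46637 that named a gene, 4 for Trp53, 8 for Mdm2 and 15 for Mdm4, and they are 3 of the 14949 genes with reads. The study asked whether loss of Tut1, a terminal uridylyltransferase that uridylates U6 snRNA, disturbs mRNA splicing, and the cells were primary cultures from the dorsal pallium of floxed embryos. There was 1 library per genotype, all at 3 days. The control was Tut1f/f cells that received lipid nanoparticles (LNP) without cargo. The other libraries came from cells given LNP with Cre mRNA, namely Tut1f/f cells (here Tut1f/f;Cre), Trp53f/f cells (Trp53f/f;Cre, labelled as the P53 knockout) and Tut1f/f;Trp53f/f cells (Tut1f/f;Trp53f/f;Cre, labelled as knocked out for both genes). The control alone lacked Cre mRNA, so in any comparison with Tut1f/f the genotype and the presence of Cre mRNA cannot be told apart, and Trp53f/f cells without Cre mRNA were not among the libraries. Per the study's methods, Cre removes exon 2 of Tut1, and the Trp53 allele is the tm1Brn allele, whose loxP sites are known to lie in introns 1 and 10. A figure legend of the study instead describes making the Trp53-floxed mice by CRISPR/Cas9, so which allele was used is not settled here. Values of the 4 libraries are given below in the order control, Tut1f/f;Cre, Trp53f/f;Cre, double-floxed with Cre.

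p53 is a transcription factor that is kept scarce in unstressed cells. Mdm2 is a RING-type E3 ubiquitin ligase that binds p53, blocks its activation domain and marks it for the proteasome, and Mdm4 (MdmX) is its relative with little ligase activity of its own, which binds the same domain and pairs with Mdm2. p53 in turn activates transcription of Mdm2 from a promoter in the first intron of Mdm2, which closes a negative feedback loop. In neural progenitors, loss of either regulator is known to cause death through p53, and an Mdm4 transcript that skips an internal exon is a well-known readout of disturbed splicing in these cells.

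The sequences that bear on these relations are shown first, as GENCODE M21 gives them on GRCm38. Mdm2-207 (ENSMUST00000147823) is an annotated processed transcript that begins inside the first intron of the main coding transcript. Its first exon holds 2 separate stretches that match a pair of p53 half-sites, with 0 or 1 base between them and at most 3 mismatches over both. The stretches lie at chr10:117710105-117710124 and chr10:117710067-117710087 on the minus strand and are in capitals in the line that follows, which covers chr10:117710057-117710134.
Mdm2-207: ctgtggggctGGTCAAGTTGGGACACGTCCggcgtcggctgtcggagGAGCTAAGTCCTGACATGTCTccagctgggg
The half-site consensus reads the same on both strands. A match of this kind was present in the first 300 bases of 11.7% of 32851 RefSeq promoter windows (GRCm38.p6), and 2 or more, overlapping ones included, in 1.83%. A match describes the letters and does not show that p53 was bound there.

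Mdm4-210 (ENSMUST00000188090, coding) and Mdm4-214 (ENSMUST00000191212, annotated for nonsense-mediated decay, the pathway that degrades mRNAs with an early stop) differ in their ends and, among the internal exons, mainly by exon 6 of Mdm4-210, of 68 bases, at chr1:133004654-133004721 on the minus strand. Since 68 leaves a remainder of 2 on division by 3, the reading frame shifts when this exon is absent. The exon is in capitals in the first line. In the second line, which ends at chr1:133003850, the same 15 bases run directly into the next exon, and the capitals mark the stop codon that ends the annotated coding sequence of Mdm4-214 after 384 bases, against 1467 in Mdm4-210.
Mdm4-210: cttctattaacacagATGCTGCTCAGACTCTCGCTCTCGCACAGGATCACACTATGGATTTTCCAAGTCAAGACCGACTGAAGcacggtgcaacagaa
Mdm4-214: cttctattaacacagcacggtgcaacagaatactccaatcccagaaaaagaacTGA
The annotated Trp53 transcripts differ in how their last exon begins, at position 69591350 of chromosome 11 in Trp53-201 (ENSMUST00000005371) and at 69591254 in Trp53-206 (ENSMUST00000171247), which gives p53 different C-terminal ends. Both lines start with the last 15 bases of exon 10 and end with the stop codon in capitals, and they cover chr11:69591350-69591431 and chr11:69591254-69591308 of exon 11 on the plus strand.
Trp53-201: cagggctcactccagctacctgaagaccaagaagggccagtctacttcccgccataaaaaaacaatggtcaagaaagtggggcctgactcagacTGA
Trp53-206: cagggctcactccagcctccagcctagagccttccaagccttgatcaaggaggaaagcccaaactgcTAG

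The libraries held between 2863392 and 4244467 reads that named a gene, and levels are in TMM-scaled CPM, reads per 1000000 gene reads after trimmed-mean scaling. Without replicates, a gene was called different between 2 libraries when the ratio reached 2-fold and the exact 95% interval left out no change, and the intervals hold counting error alone, since amplified reads carry no molecular identifiers and are not independent molecules. Markers of neural stem cells were detected for 10 of 10 genes, summing to between 11594 and 13393 CPM. None of the 4 microglial markers had a read. Summed neuronal markers stood at 15.6, 13.2, 9.18 and 15.3 CPM, with Rbfox3 at 0. Astrocyte markers stood at 49.5, 11.9, 6.89 and 31.5 CPM with Gfap at 0, and oligodendrocyte lineage markers at 314, 552, 648 and 445 CPM. The Tut1 total did not follow the labels, with 37, 11, 14 and 27 reads (9.30, 3.63, 4.02 and 9.15 CPM). It was low in Trp53f/f;Cre, which is not floxed for Tut1, and at the control's level in Tut1f/f;Trp53f/f;Cre, so these libraries are called below by their labels, P53 KO and double KO (knockout). Since Cre removes exon 2 alone, a total over the whole gene need not fall on deletion and is no check of it. Its annotated transcript ENSMUST00000096239 had 28, 0, 2 and 6 reads, fewer than the control in all 3 libraries with Cre mRNA. The cultures also differed in Xist, the RNA of the silenced X chromosome, with 0, 44, 49 and 0 reads, and in the Y-linked genes Ddx3y (85, 0, 0 and 66 reads), Eif2s3y (155, 0, 0 and 60 reads) and Kdm5d (25.6, 0, 0 and 32.5 CPM). The 2 libraries with Xist and without these genes were also the 2 lowest in Tut1. The part of any of these differences in the results that follow was not tested.

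Trp53 (ENSMUSG00000059552, chr11:69580359-69591873, plus strand) was lowest in the 2 libraries labelled as Trp53-deleted and intermediate in Tut1f/f;Cre. Its reads numbered 175, 67, 10 and 19, and its level was 44.0 CPM (37.7 to 51.0), 22.1 (17.1 to 28.1), 2.87 (1.38 to 5.28) and 6.44 (3.88 to 10.1). The intervals of Tut1f/f, of Tut1f/f;Cre and of the 2 libraries labelled as deleted did not overlap one another, while those 2 overlapped. Relative to Tut1f/f, Trp53 was 15.3-fold lower (8.14 to 32.5) in the library labelled P53 KO and ranked 13th from the lowest of 9882 genes tested. The fold was 6.83 (4.25 to 11.6) in the library labelled double KO, at rank 29. Relative to Tut1f/f;Cre, it was 7.71-fold and 3.44-fold lower in these libraries, with ranks of 4 and 37. In Tut1f/f;Cre, labelled as intact for Trp53, it was 1.99-fold lower than in Tut1f/f (1.49 to 2.68), just short of the 2-fold rule, at a rank of 1342. The library labelled double KO stood above the one labelled P53 KO by a log2 ratio of 1.17 (-0.01 to 2.43), an interval that just included no change. In bulk libraries such as these, fewer cells with the transcript and less of it per cell cannot be told apart.

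Mdm2 (ENSMUSG00000020184, chr10:117688875-117710758, minus strand) followed the same order with smaller steps. It had 60, 29, 12 and 12 reads, at 15.1 CPM (11.5 to 19.4), 9.57 (6.41 to 13.8), 3.44 (1.78 to 6.02) and 4.07 (2.10 to 7.10). Tut1f/f did not overlap the 2 libraries labelled as Trp53-deleted but overlapped Tut1f/f;Cre, and the latter overlapped the library labelled double KO. Mdm2 was 4.38-fold lower (2.33 to 8.95) than in Tut1f/f in the library labelled P53 KO and 3.71-fold lower (1.98 to 7.58) in the library labelled double KO. Against Tut1f/f;Cre the corresponding folds were 2.78 (1.38 to 5.98) and 2.35 (1.17 to 5.07), and both were called. In Tut1f/f;Cre against Tut1f/f the log2 ratio was -0.66 (-1.35 to 0.01), and between the 2 libraries labelled as deleted it was 0.24 (-1.04 to 1.52). With 12 reads in each of the latter, a difference within this interval was not detectable at this depth.

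Mdm4 (ENSMUSG00000054387, chr1:132959484-133030561, minus strand) had similar totals in the 4 libraries, and its reads numbered 57, 69, 66 and 69. Its level was 14.3 CPM (10.9 to 18.6), 22.8 (17.7 to 28.8), 18.9 (14.6 to 24.1) and 23.4 (18.2 to 29.6), lowest in Tut1f/f, and the intervals of all 4 overlapped. No pair was called on reads that name the gene. Relative to Tut1f/f, the log2 ratio stood at 0.67 (0.14 to 1.20) in Tut1f/f;Cre, 0.40 (-0.13 to 0.94) in the library labelled P53 KO and 0.71 (0.18 to 1.24) in the library labelled double KO, so 2 of these intervals left out no change without reaching 2-fold. Among the 3 libraries with Cre mRNA, every interval of Mdm4 included no change, the widest reaching from -0.78 to 0.24.

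**Figure D1:**
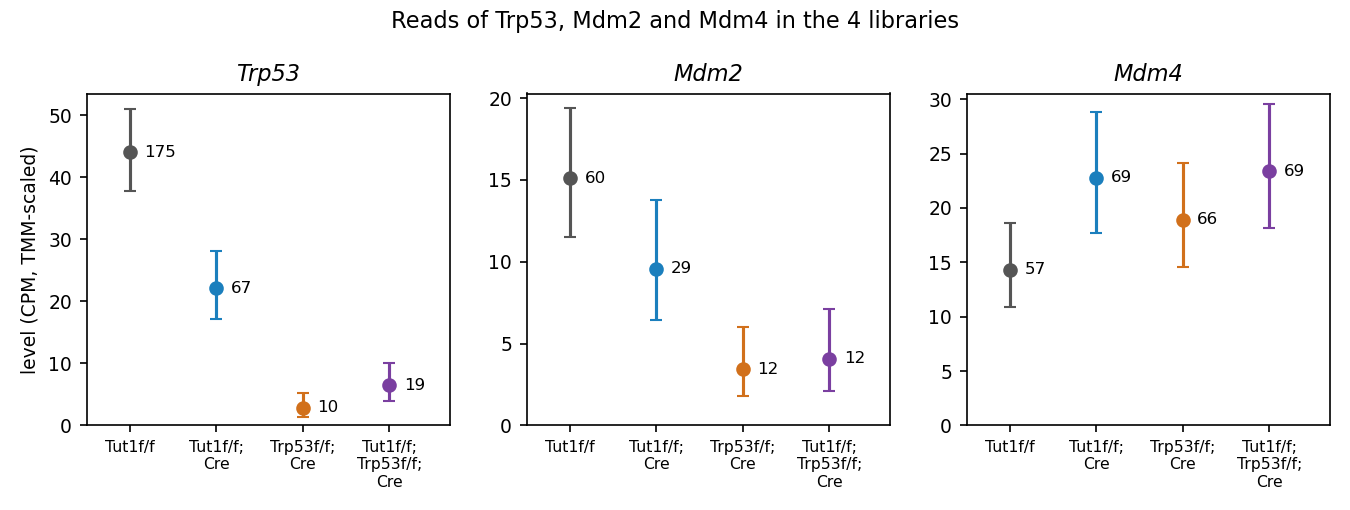
Level of Trp53, Mdm2 and Mdm4 (vertical axes, TMM-scaled CPM from 0) in the 4 libraries, 1 point per library with its exact Poisson 95% interval and its number of reads beside it. Trp53 goes from 44.0 CPM in Tut1f/f to 2.87 in the library labelled P53 KO, Mdm2 from 15.1 to 3.44, and the 4 intervals of Mdm4 overlap.

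The pair rule applied to all 9882 genes gives the background to these counts. In Tut1f/f;Cre against Tut1f/f, 0 of the 3 members were called, where 26% of all genes were. In the libraries labelled P53 KO and double KO against Tut1f/f, 2 of 3 members were called lower, where 27.8% and 20.1% of genes were called in either direction. Fewer genes differed between libraries that all had Cre mRNA. Trp53 and Mdm2 were called lower in the library labelled P53 KO against Tut1f/f;Cre, where 3.35% of genes were called, and in the library labelled double KO against Tut1f/f;Cre, where 4.49% were. Mdm2 ranked 94th and 182nd from the lowest of 9882 in these comparisons, which share Tut1f/f;Cre. No member was called between the 2 libraries labelled as Trp53-deleted, where 7.24% of genes were.

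**Figure D2:**
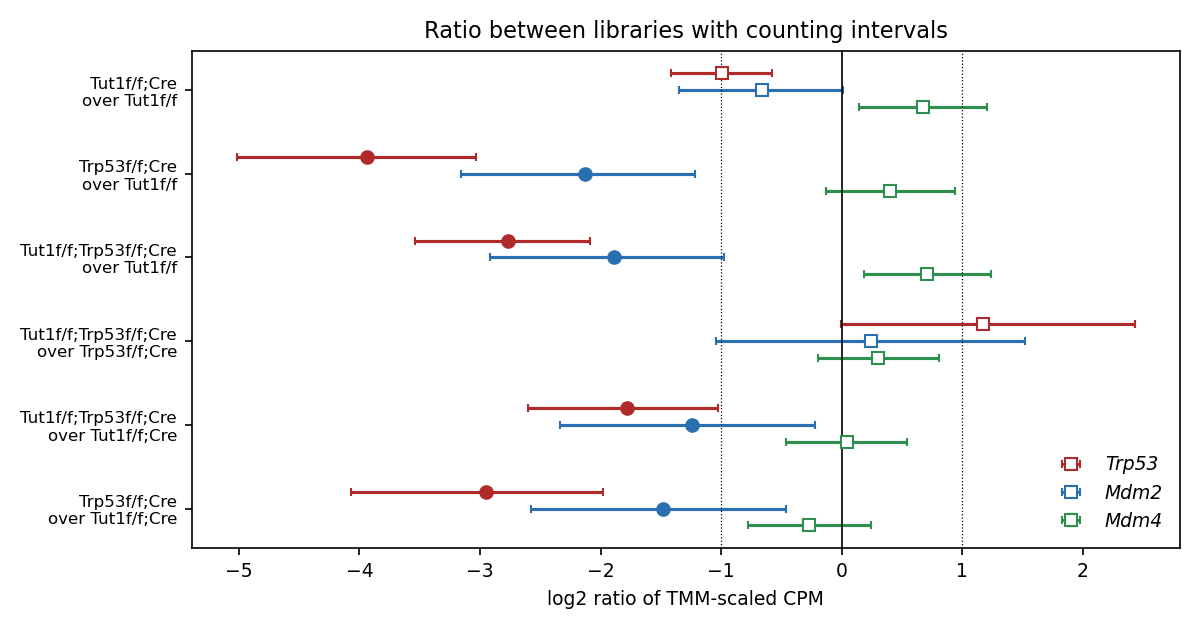
Log2 ratio of TMM-scaled CPM (horizontal axis) for the 6 pairs of libraries (rows), with exact 95% intervals, for Trp53 in red, Mdm2 in blue and Mdm4 in green. Filled circles passed the pair rule and open squares did not, and dotted lines mark a 2-fold difference. Trp53 and Mdm2 have filled circles in the 4 pairs that set a library labelled as Trp53-deleted against one that was not, and Mdm4 has none.

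In the additive edgeR fit of both deletions, Tut1 status and Trp53 status, with 1 residual degree of freedom, no member passed an FDR of 0.05. Over all genes it called 0.0101% for Trp53 status, which was 1 gene, and 0% for Tut1 status, where DESeq2 called 0 too and 171 genes reached an unadjusted p below 0.05. For Trp53 status, the fitted log2 fold change of Trp53 was -2.81 (edgeR, SE 0.670, FDR 0.0921), with the third smallest p of 9882 genes. Mdm2 had -1.68 (edgeR, SE 0.748, p 0.0248, FDR 1) and ranked 78th by p, and Mdm4 had 0.22 (SE 0.590). For Tut1 status the values were -0.10 (SE 0.663) for Trp53, -0.27 (SE 0.738) for Mdm2 and 0.47 (SE 0.590) for Mdm4, beside -0.09 (edgeR, SE 0.778, FDR 1) for Tut1 itself. Without Tut1f/f;Cre, a fit of Trp53 status alone set Tut1f/f, the only library without Cre mRNA, against both libraries labelled as Trp53-deleted. In that edgeR fit Trp53 had -3.26 and Mdm2 -2.00. For Trp53 the value was -2.27 without Tut1f/f, -2.37 without the library labelled P53 KO and -3.48 without the one labelled double KO. Each of these fits left a status with a single library, whose spread cannot be estimated, so no call is drawn from them.

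The Trp53 reads were mostly of Trp53-201, the annotated full-length coding transcript of 11 exons, in Tut1f/f and Tut1f/f;Cre. It had 142, 48, 6 and 9 reads, or 81.1% of Trp53 reads (Wilson 95% interval 74.7 to 86.2), 71.6% (59.9 to 81.0), 60.0% (31.3 to 83.2) and 47.4% (27.3 to 68.3). Reads assigned to the full-length transcript thus did not reach 0 in either library labelled as Trp53-deleted. Whether these reads held all 11 exons was not tested. An isoform named by a read had 21, 9, 1 and 7 reads. The transcripts with the longer last exon were rare, with 9, 3, 2 and 1 reads for Trp53-206 and 3, 7, 1 and 2 for Trp53-202 (ENSMUST00000108657). Trp53-202 went from 1.71% of Trp53 reads in Tut1f/f to 10.4% in Tut1f/f;Cre (Fisher's exact test, FDR 0.0419), which missed the 10-point rule at 8.73 points, and the other Trp53 isoforms had FDRs of 0.347 to 1 in this pair. Usage of Trp53 isoforms in the libraries labelled as deleted was not tested, because both had fewer than 20 Trp53 reads. At a minimum of 10, Trp53-201 was called in the library labelled double KO, by -33.8 points from Tut1f/f (Fisher's exact test, FDR 0.0265), and among plain annotated transcripts Trp53-202 was called in Tut1f/f;Cre, by 10.1 points (FDR 0.0297).

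Mdm2 reads were spread over 8 isoforms. Mdm2-201 (ENSMUST00000020408), the coding transcript of 12 exons, had the most reads over the 4 libraries, with 31, 9, 2 and 7, which was 51.7% (39.3 to 63.8), 31.0% (17.3 to 49.2), 16.7% (4.70 to 44.8) and 58.3% (32.0 to 80.7) of Mdm2 reads. These intervals overlapped. In the library labelled P53 KO an isoform named by a read had more, with 4 reads. Mdm2-207, the transcript that begins beside the matches to p53 half-sites, had 5, 6, 2 and 1 reads, or 8.33% (3.61 to 18.1), 20.7% (9.85 to 38.4), 16.7% (4.70 to 44.8) and 8.33% (1.49 to 35.4). Between Tut1f/f;Cre and Tut1f/f, the only pair with enough reads, 0 of 3 Mdm2 isoforms tested were called (Fisher's exact test, FDR 0.261 for Mdm2-201 and 0.429 for Mdm2-207). Among plain annotated transcripts Mdm2-201 was called, by -36.3 points (FDR 0.0426). Isoforms named by a read made up 18, 5, 6 and 3 reads, and the 2 annotated retained intron transcripts together 3, 5, 1 and 0. The files give no start site for a read, so use of the promoter in intron 1 could not be read from them beyond Mdm2-207.

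For Mdm4 no total was called, but shares of its isoforms were. Mdm4-210, the only plain annotated coding transcript with reads, had the largest share in Tut1f/f and a smaller one in each library with Cre mRNA, where a read-named isoform led. It had 25, 7, 12 and 9 reads, or 43.9% of Mdm4 reads (31.8 to 56.7), 10.1% (5.0 to 19.5), 18.2% (10.7 to 29.1) and 13% (7.02 to 23.0). The interval of Tut1f/f did not overlap the other 3, and these 3 overlapped one another. By Fisher's two-sided exact test, its share differed from that in Tut1f/f by -33.7 points in Tut1f/f;Cre (FDR 0.000521), by -25.7 points in the library labelled P53 KO (FDR 0.0239) and by -30.8 points in the library labelled double KO (FDR 0.00264). The 3 comparisons share the Tut1f/f library, so they are not independent, and this test, here and for every isoform, treats amplified reads of 1 library as independent molecules, so its p and FDR cover counting error only. With read-named isoforms and variants left out of the shares, the FDRs were 0.000494, 0.281 and 0.0191 (Fisher's exact test), so the call in the library labelled P53 KO was lost, at a difference of -23.4 points and with fewer reads in the test.

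A second isoform moved the same way. Named by a read and not matched to an annotated transcript, it had 14, 3, 5 and 2 reads, or 24.6%, 4.35%, 7.58% and 2.90% of Mdm4 reads. It was called lower than Tut1f/f in Tut1f/f;Cre (Fisher's exact test, FDR 0.0131) and in the library labelled double KO (FDR 0.00545), with an FDR of 0.0714 in the library labelled P53 KO. Another read-named isoform stood at 5, 13, 18 and 20 reads (8.77%, 18.8%, 27.3% and 29.0%), lowest in Tut1f/f, and its FDRs against Tut1f/f were 0.369, 0.0644 and 0.0563 (Fisher's exact test), so it was not called. A variant of Mdm4-201 (ENSMUST00000067398), a coding transcript with a shorter last exon, had 1, 7, 11 and 5 reads. It was called higher in the library labelled P53 KO, at 16.7% against 1.75% (Fisher's exact test, FDR 0.0396).

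The exon-skipping transcript Mdm4-214 was a small part of Mdm4 in every library. It had 3, 8, 1 and 8 reads, or 5.26% (1.81 to 14.4), 11.6% (5.99 to 21.2), 1.52% (0.268 to 8.10) and 11.6% (5.99 to 21.2), with most reads in both libraries labelled as Tut1-deleted. All 4 intervals overlapped. The difference of 6.33 points between Tut1f/f;Cre and Tut1f/f was not called (Fisher's exact test, FDR 0.645), nor was that between the library labelled double KO and Tut1f/f (FDR 0.684). Against the library labelled P53 KO neither was tested, as the isoform had fewer than 10 reads over each pair. The files do not show whether isoforms named by a read hold this exon.

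Annotated retained intron transcripts of Mdm4 took 7, 18, 12 and 12 reads over 4 transcripts, which was 12.3% (6.08 to 23.2), 26.1% (17.2 to 37.5), 18.2% (10.7 to 29.1) and 17.4% (10.2 to 28). These intervals overlapped. Mdm4-207 (ENSMUST00000186645) had 0, 8, 6 and 6 reads, where the 0 of 57 in Tut1f/f allows a share of up to 6.31% by the Wilson interval. Mdm4-211 (ENSMUST00000189596) had 7, 3, 5 and 2 reads, most in Tut1f/f. The remaining Mdm4 isoforms, each under 10 reads in all, numbered 8.

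**Figure D3:**
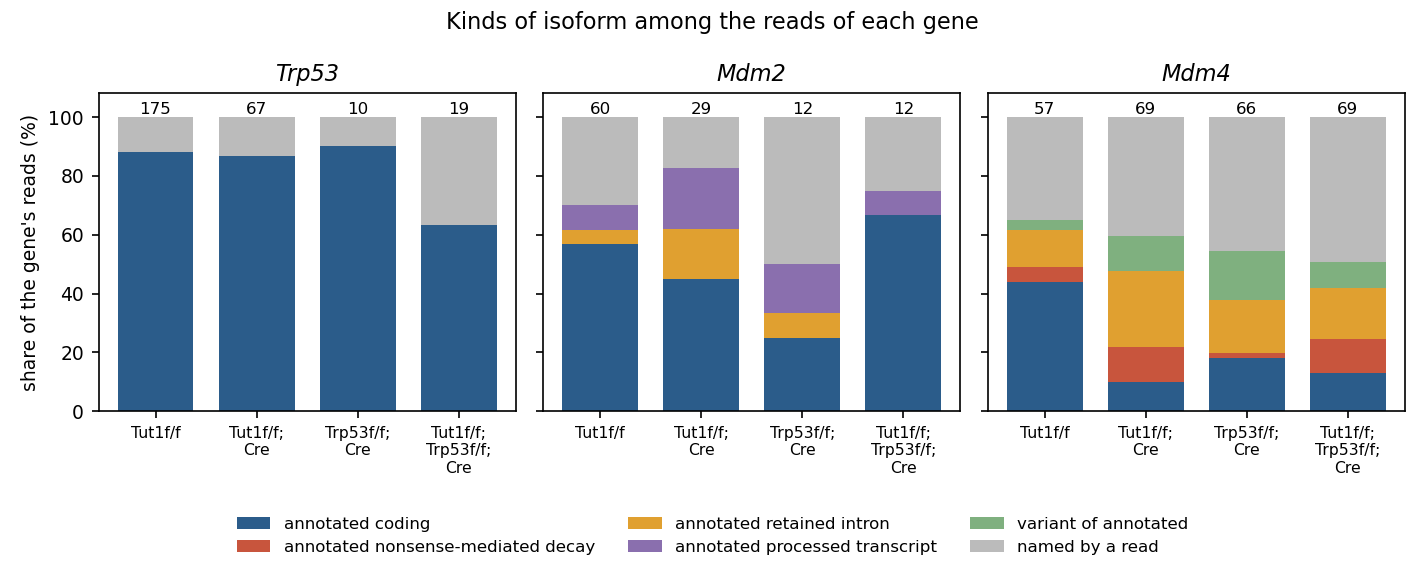
Share of each gene's reads (vertical axis, percent) by kind of isoform, stacked to 100%, in the 4 libraries for Trp53, Mdm2 and Mdm4, with the number of reads above each bar. The annotated coding part of Mdm4 is 43.9% in Tut1f/f and between 10.1% and 18.2% elsewhere, without the variants of coding transcripts drawn apart (3.51%, 11.6%, 16.7% and 8.70%), while that of Trp53 is between 63.2% and 90.0%.

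Counted over the 3 members, 2 of 12 isoforms tested were called in Tut1f/f;Cre against Tut1f/f, where 8.66% of all isoforms tested were. For the library labelled P53 KO it was 2 of 5 against 9.12%, and for the library labelled double KO 2 of 4 against 6.49%. The called isoforms were all of Mdm4. Between libraries with Cre mRNA none was called, 0 of 4 between the 2 labelled as Trp53-deleted (1.24% of all isoforms), 0 of 5 between the library labelled double KO and Tut1f/f;Cre (0.15%) and 0 of 4 between the library labelled P53 KO and Tut1f/f;Cre (0.222%). In these 3 pairs the unadjusted p of Mdm4-210 by Fisher's exact test was between 0.220 and 0.791.

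**Figure D4:**
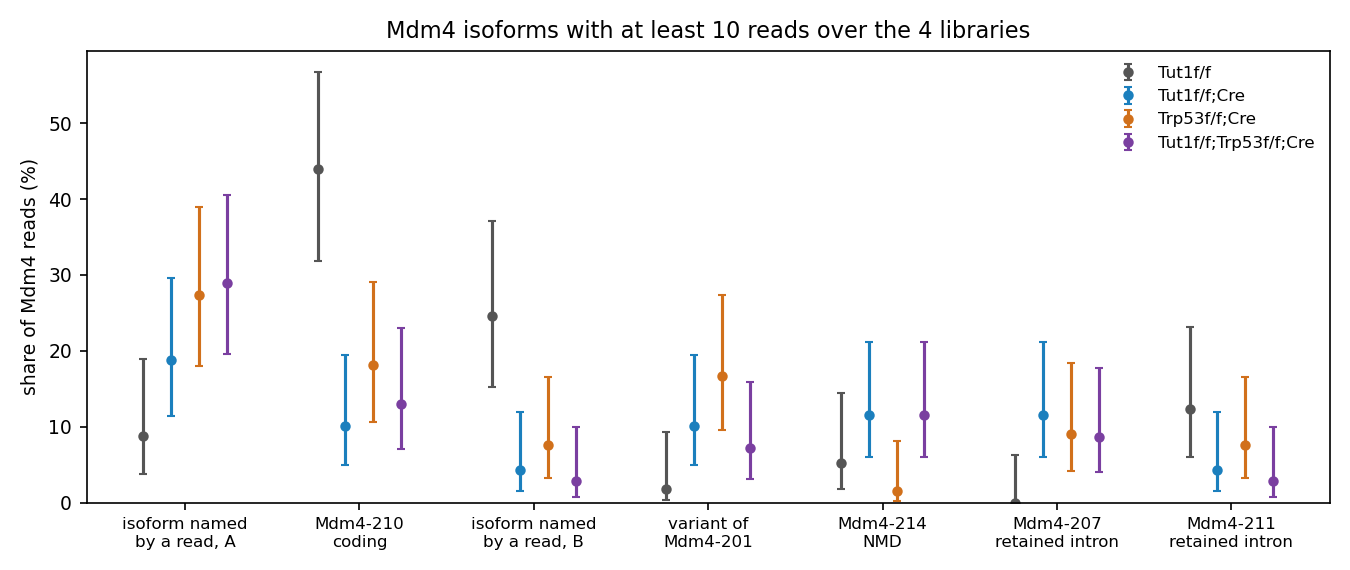
Share of Mdm4 reads (vertical axis, percent) for the 7 isoforms of Mdm4 that had 10 or more reads in all, coloured by library, with Wilson 95% intervals. Mdm4-210 and read-named isoform B are highest in Tut1f/f, and the NMD-annotated Mdm4-214 is at 11.6% in both libraries labelled as Tut1-deleted against 5.26% and 1.52%.

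Around the 3 members, the listed targets of p53 were mostly lower where Trp53 was labelled as deleted. Of 23 targets tested (of 24 listed), 16 were called lower and 0 higher in the library labelled P53 KO against Tut1f/f, with a median log2 ratio of -1.56 beside -0.02 over all genes, of which 1514 of 9882 were called lower and 1233 higher. In the library labelled double KO it was 12 lower and 0 higher, with a median of -1.12, beside 961 genes lower and 1022 higher. In Tut1f/f;Cre, where Trp53 itself was 1.99-fold lower, 3 were lower and 1 higher, with a median of -0.06, beside 1314 genes lower and 1255 higher, or 26% called in all. Between libraries that all had Cre mRNA, 12 targets were lower and 0 higher in the library labelled P53 KO against Tut1f/f;Cre (median -1.24). Of all genes, 3.35% were called in that pair. In the library labelled double KO against Tut1f/f;Cre, 11 were lower and 1 higher (median -1.11), beside 4.49% of all genes called. Both comparisons share Tut1f/f;Cre. The edgeR fit called 0 of the 23 for Trp53 status. The list was chosen with earlier results of these libraries known, so its direction is not independent evidence.

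Pmaip1, which encodes the BH3-only protein Noxa, had 40, 18, 1 and 1 reads, and with a log2 ratio of -5.13 (-10.47 to -2.57) in the library labelled P53 KO it had the lowest ratio of the list. Eda2r, a death receptor, had 96, 41, 7 and 17 reads, close to the course of Trp53. It was the only target called between the 2 libraries labelled as Trp53-deleted, where 7.24% of all genes were called. It was higher by 1.52 (0.18 to 3.03) in the library labelled double KO. Phlda3, an inhibitor of Akt, had 129, 14, 9 and 8 reads, and Ccng1, which encodes cyclin G1, had 297, 62, 28 and 46. Both were already low in Tut1f/f;Cre, with log2 ratios of -2.81 (-3.72 to -2.01) and -1.87 (-2.29 to -1.47). The third target called lower there, Sesn1, had 59, 5, 16 and 21 reads, the fewest in Tut1f/f;Cre. Trp53cor1, the long noncoding RNA lincRNA-p21, was higher, with 30, 64, 45 and 22 reads. Trp53inp1 (86, 41, 11 and 15 reads), Fas (32, 33, 7 and 6) and Bbc3, which encodes Puma (123, 124, 34 and 31), were called lower in both libraries labelled as Trp53-deleted, as was Cdkn1a, which encodes the cell cycle inhibitor p21 and is named here after its values were seen (744, 649, 171 and 221). Perp and Tnfrsf10b were called lower in the library labelled P53 KO and Sesn2 and Gdf15 in both.

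The other enzymes that limit p53 had calls in both directions. Of 13 tested (of 14 listed), 2 were higher and 1 lower in Tut1f/f;Cre against Tut1f/f, 4 higher and 2 lower in the library labelled P53 KO, and 0 higher and 1 lower in the library labelled double KO. Over all genes, 26%, 27.8% and 20.1% were called in these comparisons. Trim24, a ubiquitin ligase for p53, had 75, 182, 140 and 97 reads, and Stub1, the chaperone-linked ligase CHIP, had 482, 154, 254 and 166. Ppm1d, which encodes the phosphatase Wip1, had 1 read in each library and was not tested. Among proteins that restrain Mdm2 or activate p53, 18 of 20 were tested, and 4 were higher with 2, 3 and 1 lower in the 3 comparisons with Tut1f/f in the order given, to be read against the same shares of all genes. Crebbp, an acetyltransferase that acts on p53, had 107, 401, 444 and 334 reads and was called higher in each. Atr, a kinase of the DNA damage response, had 11, 31, 28 and 19 reads. Chek2, the kinase Chk2, had 52, 10, 14 and 28, and Kat5, the acetyltransferase Tip60, had 88, 24, 20 and 35, both fewest in the 2 libraries that were also lowest in Tut1. The edgeR fit called none of either list for Trp53 or Tut1 status. Trp63 and Trp73, the other members of the p53 family, had no reads in any library, where 3 counts correspond to between 0.754 and 1.02 CPM.

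**Figure D5:**
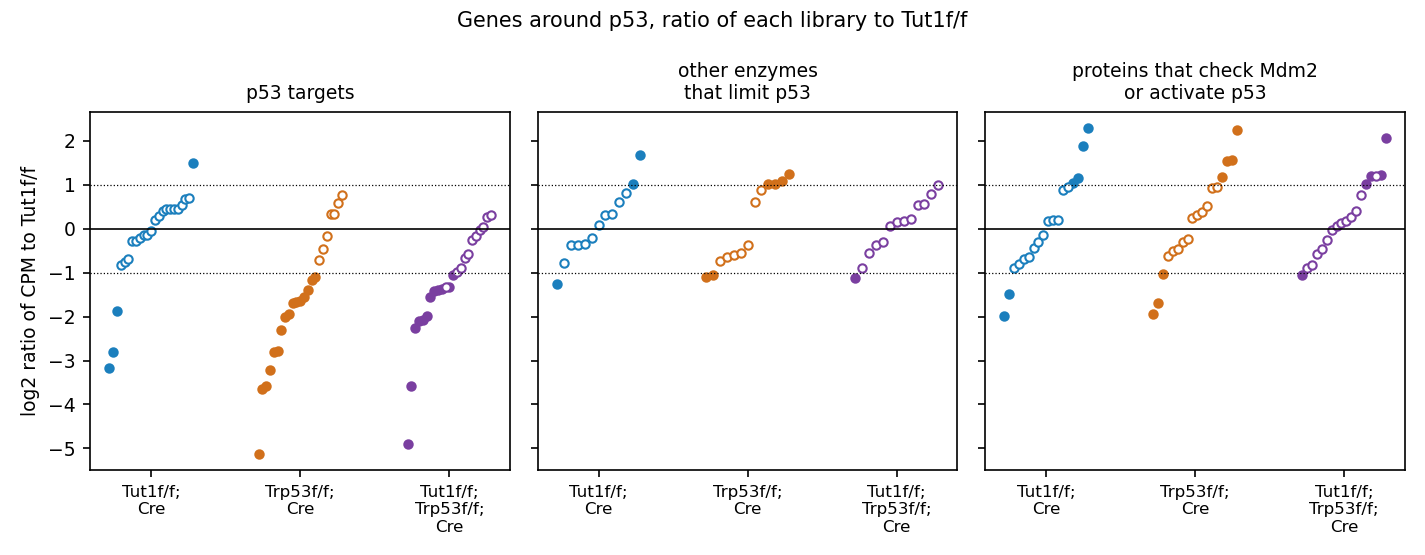
Log2 ratio of TMM-scaled CPM to Tut1f/f (vertical axis) for each tested gene of the 3 lists, 1 point per gene, ordered by value within each of the 3 libraries with Cre mRNA. Filled points passed the pair rule, and dotted lines mark a 2-fold difference. Of the p53 targets, 16 and 12 are filled below 0 in the 2 libraries labelled as Trp53-deleted and 3 in Tut1f/f;Cre.

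By the distance between courses over the 4 libraries, on log2(CPM + 0.5) centred for each gene, the 3 genes nearest to Trp53 were Pqlc3 (distance 0.401, with 35, 19, 1 and 3 reads), Eda2r (0.535) and Ak1 (0.552, with 226, 84, 22 and 28 reads), where the median over all genes was 2.92. Those nearest to Mdm2 were Lmna (0.141, with 22, 12, 4 and 4 reads), Susd6 (0.230) and B230398E01Rik (0.290), against a median of 1.70. The genes nearest to Mdm4 were Dnttip2 (0.0169), Cycs (0.0234) and Pcif1 (0.0468), against 0.828. With 4 libraries and low counts, many genes can share such a course, and the ranking is a description.

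Reads that the table places at a position inside a gene without naming it were kept out of these values, and adding them changes what is called for all 3 members. They numbered 20, 55, 36 and 27 inside Mdm2, more than its own reads in each library with Cre mRNA, and 22, 29, 41 and 33 inside Trp53 and 119, 233, 159 and 178 inside Mdm4. With them added, Mdm2 stood relative to Tut1f/f at a log2 ratio of -0.55 (-1.09 to -0.01) in the library labelled P53 KO and -0.61 (-1.20 to -0.04) in the library labelled double KO, no longer 2-fold. Against Tut1f/f;Cre it was still called in both, at -1.01 (-1.55 to -0.48) and -1.07 (-1.66 to -0.50). In Tut1f/f;Cre against Tut1f/f, Mdm2 went from -0.66 to 0.46 (0.00 to 0.92) and Mdm4 was called higher, at 1.17 (0.90 to 1.45). Trp53 was still called lower than in Tut1f/f in the libraries labelled as Trp53-deleted, at -1.76 (-2.23 to -1.31) and -1.49 (-1.96 to -1.04). Against Tut1f/f;Cre it was called in the library labelled P53 KO, at -1.11 (-1.63 to -0.61), but no longer in the one labelled double KO, at -0.85 (-1.36 to -0.35). The files give neither strand nor exon content for these entries, so whether they derive from the named genes was not tested.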

How the data were processed

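The authors deposited 1 table of Nanopore read counts per isoform, whole numbers that were not normalized, with 1 column per library. The deposited table's aligner, isoform caller, filters and strand handling are not given in the sources used here (for its pallium long reads the study names minimap2 and FLAIR); the submitters' processing notes name the build mm10. Entries naming a gene were summed by gene identifier, with symbols, positions and biotypes from GENCODE M21. Those naming a position only (17.2% to 30.2% of reads) were left out of totals.

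Levels were scaled by TMM factors over all genes. Ratios between libraries have exact conditional binomial 95% intervals, and 9882 genes passed edgeR's expression filter. edgeR 4.0.16 (R 4.3.3, quasi-likelihood test, Benjamini-Hochberg FDR) was fitted to Tut1 and Trp53 status. The SE given with its values was computed as the absolute log2 fold change divided by the square root of the F statistic. Isoform shares were compared between libraries, not conditions, by Fisher's two-sided exact test (at least 10 isoform reads over the pair, 20 gene reads in each, FDR under 0.05, 10 points). List medians used a pseudocount of 0.5 CPM. DESeq2 1.42.0 was an alternative. The ratio rule and the isoform test, for the library labelled P53 KO against Tut1f/f, and the edgeR fit for Trp53 status were tested on simulated data. Named were the members, their isoforms with 10 or more reads, up to 10 called list genes with the largest ratio per comparison to Tut1f/f, and the 3 nearest genes per member. Members, lists and rules were chosen with earlier results of these data known. No sample was left out.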

Additional observations from a re-analysis of the deposited data

Results flagged for a closer look

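The comparison of libraries labelled by Tut1 status went opposite ways in the 2 Trp53 backgrounds for 2 members. Trp53 had a log2 ratio of -0.99 in Tut1f/f;Cre over Tut1f/f and of 1.17 in the library labelled double KO over the one labelled P53 KO, and Mdm2 had -0.66 and 0.24. Tut1 itself also went opposite ways, at -1.36 (-2.48 to -0.36) and 1.19 (0.21 to 2.23). With 1 library per genotype the difference between backgrounds was not tested, and of the members' 4 ratios only the first of Trp53 had an interval that left out no change. With position-named entries added, Trp53 stood at -0.64 (-1.01 to -0.28) and 0.27 (-0.32 to 0.85), and Mdm2 at 0.46 and -0.06.

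Entries that name a position inside a gene, outside the levels of the report, exceeded the control's level in 7 of 9 comparisons with it, by intervals that left out no change. Relative to Tut1f/f, their summed log2 ratio stood at 1.09 (0.31 to 1.91) for Trp53 in the library labelled P53 KO and 1.02 (0.19 to 1.86) in the library labelled double KO, and at 0.79 (-0.06 to 1.66) in Tut1f/f;Cre. For Mdm2 it was 1.85 (1.09 to 2.67) in Tut1f/f;Cre, and it was 1.04 (0.21 to 1.91) in the library labelled P53 KO and 0.86 (-0.02 to 1.77) in the library labelled double KO. For Mdm4 it was 1.36 (1.04 to 1.69), 0.61 (0.26 to 0.96) and 1.01 (0.67 to 1.36) in the 3 libraries with Cre mRNA, in the order of the report. Those libraries also had a larger share of all reads that named no gene, 27.3% to 30.2% against 17.2%, and the part of that difference in these ratios was not tested.

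Within Trp53, the 3 such entries placed in the kilobase of its first exon (from 69580000 on chromosome 11) had 2, 6, 15 and 18 reads in all, fewest in Tut1f/f, where the Trp53 gene total was highest. Relative to Tut1f/f, their log2 ratio stood at 3.10 (0.99 to 6.27) in the library labelled P53 KO and 3.60 (1.54 to 6.75) in the library labelled double KO, and 1.98 (-0.51 to 5.32) in Tut1f/f;Cre. In the tm1Brn allele, exon 1 lies outside the part that Cre removes. Wrap53, transcribed in the opposite direction from the minus strand, begins at 69580255 beside this exon and had 58, 24, 30 and 42 reads. Which gene these reads came from, and whether they join exon 1 to another exon, was not tested, since the table gives no exons for them.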

How the results depend on the processing

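The direction of Trp53 and Mdm2 against Tut1f/f in the libraries labelled as Trp53-deleted held under every alternative run, and both were called in each, except Mdm2 once position-named entries were added. These entries moved Trp53 to -1.76 and -1.49 and took Mdm2 below 2-fold, at -0.55 and -0.61, with 0.46 for Mdm2 and 1.17 for Mdm4 in Tut1f/f;Cre. Trp53 in the library labelled double KO against Tut1f/f;Cre also went below 2-fold, from -1.78 to -0.85. In the latter, Trp53 was called at -1.02 without the ribosomal RNA gene in the library size, and also at -1.02 from plain annotated transcripts. These gave -0.29 and 0.16 for Mdm4 in the libraries labelled P53 KO and double KO. By library total, which raised ratios to Tut1f/f by 0.12 to 0.14, Trp53 was called between the 2 libraries labelled as Trp53-deleted (1.19). The other enzymes that limit p53 then numbered 0 lower in the library labelled P53 KO, and 1 higher and 0 lower in the library labelled double KO, where the activators numbered 0 lower.

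Plain annotated transcripts in the edgeR fits, chosen after seeing the data, gave -0.20 for Mdm4 by Trp53 status, 0.11 for Mdm2 by Tut1 status and 0 genes called by Trp53 status. Without a filter on low counts 2 genes were called by Trp53 status. Leaving out 1 library gave fits of 1 status alone, where the lone library of a status is assumed to vary like the others. By Trp53 status, Trp53 ranged from -3.48 to -2.27 (passing in 2 of 4 fits), Mdm2 from -2.00 to -1.35, Mdm4 from -0.11 to 0.56, and the genes called from 0 to 1474. By Tut1 status, Trp53 ranged from -1.88 to 2.27, Mdm2 from -1.21 to 0.95, Mdm4 from 0.25 to 0.70, and the genes called from 0 to 23. The 2.27 (edgeR, FDR 0.0154), without Tut1f/f, sets the library labelled P53 KO, lowest in Trp53, alone against the other 2. At a minimum of 20 points 1 member isoform was called in the library labelled P53 KO (Mdm4-210). With plain annotated transcripts alone, 0 were called there and 1 in the library labelled double KO. The causes were not tested.

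No paired analysis was possible because each genotype had 1 library. Depth limits Trp53 to 10 and 19 reads and Mdm2 to 12 and 12 in the libraries labelled as Trp53-deleted, and any difference between 2 libraries lacks a replicate check.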
